A study of Homo sapiens with 6 samples.

Results

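Malat1, Neat1, Kcnq1ot1, Gas5, Snhg1, Snhg3, Snhg5, Snhg6, Snhg8 and Snhg12 are genes of long noncoding RNAs (lncRNAs), transcripts that are spliced or processed like messenger RNAs but make no known conserved protein. They were taken as the rows of the count table whose gene symbol equals one of these names, which gave 10 of 22989 genes. The table holds RNA-seq read counts of 6 libraries. The samples are labelled human, and the study gives them as paclitaxel (PTX)-resistant MDA-MB-231 breast cancer stem-like cells (BCSC). This line comes from a human breast tumour of the triple-negative kind, without estrogen receptor, progesterone receptor or HER2 amplification, and the study sorted the BCSC by high aldehyde dehydrogenase activity. The KD group (n = 3) is labelled LINC00115 knockdown and was made with a short hairpin RNA (shRNA) against that lncRNA. The control group (n = 3) is labelled WT, where the study writes of a control shRNA. The study gives both groups as the same PTX-resistant line, and the comparison asks which transcripts differ when LINC00115 is depleted.

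Several properties of the table limit what the labels can be checked against. LINC00115 itself has 0 rows, so the knockdown could not be checked and every direction below rests on the sample labels. The KD samples are named sh115-1 to sh115-3 and titled as replicates in the labels, while the study names the hairpin sh115-2 for this comparison. The samples are labelled human, yet the symbols are written in mouse style. Of the genes, 4648 carry Gm names and 1129 carry Rik names, both of which belong to mouse annotation. That the counts are of human MDA-MB-231 cells rests on the labels and the study, and the table alone does not show it. All 12 markers fixed for MDA-MB-231 cells were counted, with WT means from 2.99 CPM (Tgfbi) to 4592 CPM (Lgals1). CPM are counts scaled to a common library total and given per 1000000 counts. Vim was at 3418 and 3736 CPM in WT and KD. Of 12 markers fixed as low in this line, Krt8 (472 CPM), Krt18 (129 CPM) and Gata3 (95.8 CPM) were highest in WT. Another 4 of these 12 were too low to test. Neither marker list tells the species, so these values do not show that the cells are human or of this line. The 12 lung epithelium markers summed to 1.73–2.22 CPM in the WT libraries and 75.9–87.3 CPM in the KD libraries, and 6 of them, including Sftpc and Scgb1a1, were at 0 in every WT library. All 12 passed the test as higher in KD, beside 36.7% of all tested genes. The 6 at 0 in WT entered the test through their KD counts alone, so higher was the only possible call. The 12 kidney epithelium markers summed to 16.7–19.5 and 45.5–49.0 CPM, with 9 of 10 tested genes higher, 1 lower and 7 genes at 0 in every WT library. Those of the 7 that were tested entered the test through KD in the same way. The part of these transcripts in the results that follow was not tested.

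A lncRNA can work as a nuclear scaffold, or its gene can serve as the carrier of other RNAs. MALAT1 and NEAT1 lie next to each other in the genome. MALAT1 gathers in nuclear speckles, bodies rich in splicing factors, and NEAT1 is the scaffold of paraspeckles. RNase P cuts the 3′ end of MALAT1 and of the long NEAT1 form next to a tRNA-like structure, which leaves them without a poly(A) tail of the usual kind. KCNQ1OT1 is an antisense RNA of the imprinted KCNQ1 domain that silences neighbouring genes on the same chromosome. GAS5 and the small nucleolar RNA host genes (SNHG) carry small nucleolar RNAs (snoRNAs) in their introns. The snoRNAs guide methylation or pseudouridylation of ribosomal RNA, while many of the spliced exons leave the nucleus and are degraded by nonsense-mediated decay during translation. Several snoRNA hosts start with a terminal oligopyrimidine tract, a C followed by a run of C or T, that ties their translation to growth signals.

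Such a tract would stand at the start of the transcript. The 60 bases around the annotated start are therefore shown for the 6 host genes read here (human RefSeq, GRCh38.p14, on the strand of the gene, 30 bases on each side). The run beginning with a C at the first annotated base is in capitals. These are human sequences matched by symbol without regard to case, while the table is written in mouse style. SNHG6 is named only.
SNHG12: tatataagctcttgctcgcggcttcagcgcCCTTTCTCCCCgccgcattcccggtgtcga
SNHG5: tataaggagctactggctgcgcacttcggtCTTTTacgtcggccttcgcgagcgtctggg
SNHG1: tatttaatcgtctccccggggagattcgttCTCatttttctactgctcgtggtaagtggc
SNHG8: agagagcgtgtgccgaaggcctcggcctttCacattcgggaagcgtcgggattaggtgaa
SNHG3: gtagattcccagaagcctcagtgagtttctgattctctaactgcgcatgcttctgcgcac
GAS5: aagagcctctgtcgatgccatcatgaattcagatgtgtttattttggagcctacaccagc

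The windows lie at chr1:28581844-28581903 (minus strand) for SNHG12, chr6:85678704-85678763 (minus) for SNHG5, chr11:62855856-62855915 (minus) for SNHG1, chr4:118278732-118278791 (plus) for SNHG8, chr1:28505913-28505972 (plus) for SNHG3 and chr1:173869016-173869075 (minus) for GAS5. The run held 11 bases in SNHG12, 5 in SNHG5, 3 in SNHG1 and 1 in SNHG8, and 0 in SNHG3 and GAS5. A run of at least 5 at this position, read on the strand of the gene only, was present in 4.07% of the 35116 annotated starts. Among 18 noncoding host genes with a window, 5 had such a run: SNHG12, SNHG5, ZFAS1, SNHG4 and SNHG18. These 18 include FTX, a host of microRNAs rather than snoRNAs, with a run of 0. The run depends on the exact base annotated as the start. A tract shifted by a few bases, or at another start of the gene, is not counted. A run of 0 therefore does not show that a gene such as GAS5 lacks a tract. It describes these letters and is not evidence of a site in use.

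All 10 genes passed the low-count filter and were tested with 13497 genes in all. At an adjusted p under 0.05 (edgeR's quasi-likelihood test, Benjamini-Hochberg over all genes tested), 3 of the 10 fell in KD (Malat1, Neat1 and Snhg8), 5 rose (Snhg5, Snhg12, Snhg1, Snhg6 and Gas5) and 2 did not pass (Kcnq1ot1 and Snhg3). The same rule called 36.7% of all tested genes lower and 36.7% higher, so a share of this size is near the background of the table. With a fold change over 2 added, as in the methods of the study, 0 fell and 2 rose (Snhg5 and Snhg12), beside 9.98% of all genes lower and 10.2% higher. The median log2 fold change of the 10 genes was 0.18, against -0.0061 over all genes tested. The CPM of KD and WT libraries, here per library total, did not overlap for 8 of the 10 genes, beside 75.9% of all genes tested. The labels do not say that the samples of a group came from separate cultures, so the p-values measure the spread between these samples, which may be technical. In bulk RNA, fewer cells of a type and less RNA per cell cannot be told apart.

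**Figure D1:**
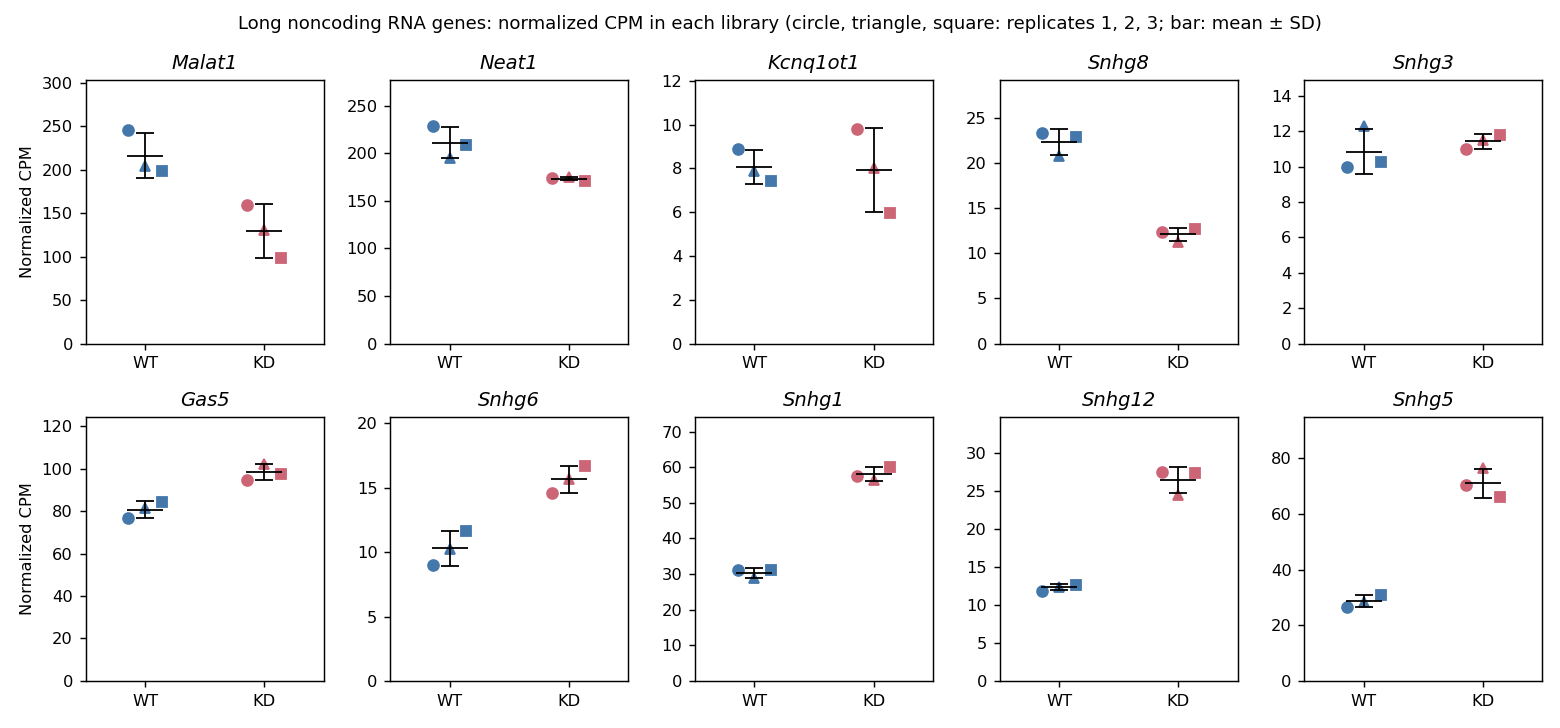
Normalized CPM (y axis, from 0, a scale for each gene) of the 10 lncRNA genes in the 3 WT (blue) and 3 KD (red) libraries, with the mean and SD as bars. The groups are apart in every panel except Kcnq1ot1 and Snhg3, and the KD libraries of Malat1 are spread from 98.4 to 160 CPM.

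Malat1 fell most among the nuclear RNAs, Neat1 fell by less, and Kcnq1ot1 showed no change that passed the test. Malat1 had 246, 205 and 198 normalized CPM in WT replicates 1, 2 and 3, and 160, 131 and 98.4 CPM in KD replicates 1, 2 and 3. Every KD library was below every WT library. The mean went from 216 ± 25.7 to 130 ± 30.7 CPM (SD, n = 3 each), 1.67-fold lower in KD (log2 fold change -0.74, SE 0.08, adjusted p = 1.67e-09, edgeR). The strength of this call depends on the test. DESeq2's test gave a log2 fold change of -0.73 with a larger SE of 0.22 (adjusted p = 0.00155). The 2 extremes, WT replicate 1 and KD replicate 3, carried part of this difference. Without both libraries, a choice made after the values were seen, the log2 fold change was -0.47 (adjusted p = 1.07e-08, edgeR).

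The 3 KD libraries differed from each other in Malat1 more than in any other gene with a mean of at least 1000 counts. Its coefficient of variation (SD over mean) was 23.7% in KD and 11.9% in WT. Among the 6871 genes of that size, 0 had a larger coefficient of variation in KD and 102 had a larger one in WT. The medians over these genes were 3.12% in KD and 3.71% in WT. Its 3738 to 9258 reads per library make the counting error small beside this spread.

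Neat1 had 228, 195 and 209 CPM in WT and 174, 175 and 171 CPM in KD. The KD libraries were close to each other, with a coefficient of variation of 1.09%, and each was below the lowest WT library. The means were 211 ± 16.4 and 173 ± 1.89 CPM (SD, n = 3 each), with a log2 fold change of -0.28 (SE 0.04, adjusted p = 3.39e-07, edgeR). When the test was set against a fold change of 1.2 in place of none, the call was lost (adjusted p = 0.225).

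Both RNAs were counted in like number in WT, and less so in KD. The ratio of Malat1 to Neat1 counts within a library was 1.08, 1.05 and 0.949 in WT, and 0.917, 0.749 and 0.575 in KD. The KD libraries were again the lower and the more spread. The mean ratio was 1.02 ± 0.0668 in WT and 0.747 ± 0.171 in KD (exact permutation test, two-sided, p = 0.1, the smallest that 3 against 3 libraries allow). This was 1 of 4 ratios chosen after the values were seen, and each had an adjusted p of 0.1 by the same exact test. No scaling between libraries enters a ratio of this kind.

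Kcnq1ot1 had 8.89, 7.89 and 7.41 CPM in WT and 9.80, 8.04 and 5.98 CPM in KD. The KD libraries lay on both sides of the WT range. The log2 fold change was -0.02 (95% interval -0.32 to 0.28, adjusted p = 0.895, edgeR), and its sign changed between alternative settings. KCNQ1, whose human gene overlaps it on the other strand, was counted 8, 1 and 3 times in WT and 0, 2 and 3 times in KD. Reads from its introns are not counted apart, so mixing of reads from both strands was not tested.

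The noncoding snoRNA hosts moved in different directions, and most of their reads came from genes that rose. Snhg5, Snhg12, Snhg1, Snhg6 and Gas5 rose, Snhg8 fell and Snhg3 did not pass. Summed over the 7 hosts, the counts were 191, 195 and 205 CPM, here per library total, in WT and 287, 296 and 289 CPM in KD. The snoRNAs themselves have 0 rows in the table and were not measured here.

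Snhg5, host of box C/D snoRNAs, showed the largest change of the 10 genes. It had 26.6, 28.5 and 30.9 CPM in WT and 70.6, 76.5 and 66.0 CPM in KD. Every KD library lay far above every WT library. The mean went from 28.7 ± 2.18 to 71.0 ± 5.27 CPM (SD, n = 3 each), a 2.48-fold rise (log2 1.31, SE 0.06, adjusted p = 2.53e-19, edgeR).

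Snhg12, host of box C/D and H/ACA snoRNAs, had 11.9, 12.4 and 12.7 CPM in WT and 27.4, 24.5 and 27.3 CPM in KD. It rose 2.15-fold (log2 1.10, SE 0.09, adjusted p = 9.61e-14, edgeR), with the groups far apart. Snhg3 lies close to Snhg12 on human chromosome 1 and hosts H/ACA snoRNAs. Its CPM were 9.98, 12.3 and 10.3 in WT and 11.0, 11.5 and 11.8 in KD, so the groups overlapped. The log2 fold change was 0.07 (95% interval -0.15 to 0.30, adjusted p = 0.548, edgeR). The ratio of Snhg12 to Snhg3 counts was 1.14 ± 0.12 in WT and 2.31 ± 0.183 in KD (SD, n = 3 each, exact permutation test, two-sided, p = 0.1), and the 3 libraries of each group did not overlap.

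Snhg1, which carries box C/D snoRNAs and stands beside SLC3A2, had 31.2, 28.8 and 31.2 CPM in WT and 57.6, 56.5 and 60.2 CPM in KD. It rose 1.91-fold (log2 0.93, SE 0.06, adjusted p = 6.16e-16, edgeR), just under the fold change of 2. The spread within a group was below 5% of its mean in both groups.

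Snhg6, host of the box C/D snoRNA U87, had 8.97, 10.3 and 11.7 CPM in WT and 14.6, 15.7 and 16.7 CPM in KD. It rose 1.52-fold (log2 0.60, SE 0.11, adjusted p = 5.78e-06, edgeR). The gap between the groups, from 11.7 to 14.6 CPM, was narrower than for the hosts above.

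Gas5, host of many box C/D snoRNAs and known as a growth arrest transcript, had 76.5, 81.3 and 84.3 CPM in WT and 94.9, 102 and 97.7 CPM in KD. It rose 1.22-fold (log2 0.28, SE 0.05, adjusted p = 2.15e-06, edgeR), and the call was lost against a fold change of 1.2 (adjusted p = 0.231). It was the most counted of the hosts, and its fold change was smaller than that of Snhg5, another box C/D host. The ratio of Snhg5 to Gas5 counts was 0.355 ± 0.0104 in WT and 0.723 ± 0.0406 in KD (SD, n = 3 each, exact permutation test, two-sided, p = 0.1).

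Snhg8, host of an H/ACA snoRNA, went the other way. It had 23.4, 20.7 and 22.9 CPM in WT and 12.4, 11.3 and 12.6 CPM in KD. It was 1.84-fold lower in KD (log2 -0.88, SE 0.09, adjusted p = 9.77e-11, edgeR), and no libraries overlapped. Set against the host that rose most, the ratio of Snhg5 to Snhg8 counts was 1.29 ± 0.13 in WT and 5.90 ± 0.802 in KD (SD, n = 3 each, exact permutation test, two-sided, p = 0.1).

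The genes are not equally abundant. Ranked by mean CPM among the tested genes, Neat1 was at 1131, Malat1 at 1303 and Gas5 at 2934, while Snhg5 (4841) and Snhg1 (5244) lay lower. Snhg12 (7680), Snhg8 (7979), Snhg6 (8627), Snhg3 (8949) and Kcnq1ot1 (9476) were in the lower part of the list. The table gives no gene lengths, so these ranks are of counts and not of levels per length, and the genes were not compared with each other as levels. The counts of the least counted gene in any library, 227 for Kcnq1ot1, still exceed the filter of 10.

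Other noncoding snoRNA hosts were described from a list of 15, of which 11 were tested. Of these, 7 rose, 1 fell and 3 did not pass, beside 36.7% of all tested genes in each direction. The median log2 fold change was 0.86. Dancr rose from 1.61 ± 0.238 to 5.10 ± 0.732 CPM (log2 1.66), Zfas1 from 29.5 ± 2.13 to 80.6 ± 4.72 CPM (log2 1.45) and Snhg15 from 10.1 ± 0.198 to 25.8 ± 2.46 CPM (log2 1.36), all with n = 3 and past a fold change of 2. Snhg16, Snhg17 and Ftx rose by less than 2-fold, and Ftx is a host of microRNAs rather than snoRNAs. Ftx stayed in the list, its counts and its median. Epb41l4aos was just inside the threshold (log2 0.36, adjusted p = 0.0461, edgeR) with overlapping libraries. The count of hosts that rose was 6 under several alternatives, among them library size alone, DESeq2's test and leaving out WT replicate 2, WT replicate 3, KD replicate 1 or KD replicate 3. Snhg20 fell (log2 -0.40), and without KD replicate 2 the count of hosts that fell was 0. Snhg4, Snhg7 and Snhg10 had log2 fold changes of 0.15, -0.05 and -0.63 without passing. With the 7 hosts described above, 12 of 18 tested noncoding hosts, Ftx included, rose and 2 fell. The share of all tested genes was 36.7% in each direction. Of the hosts whose human start holds a run of at least 5, Snhg12, Snhg5 and Zfas1 rose, Snhg4 did not pass and Snhg18 was too low to test. Of the tested hosts with a shorter run or none, Snhg1, Gas5, Snhg16, Snhg17, Dancr and Ftx rose. Among these, Snhg8 and Snhg20 fell, and Snhg3, Snhg7 and Snhg10 did not pass. A link between the run and the direction was not tested.

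**Figure D2:**
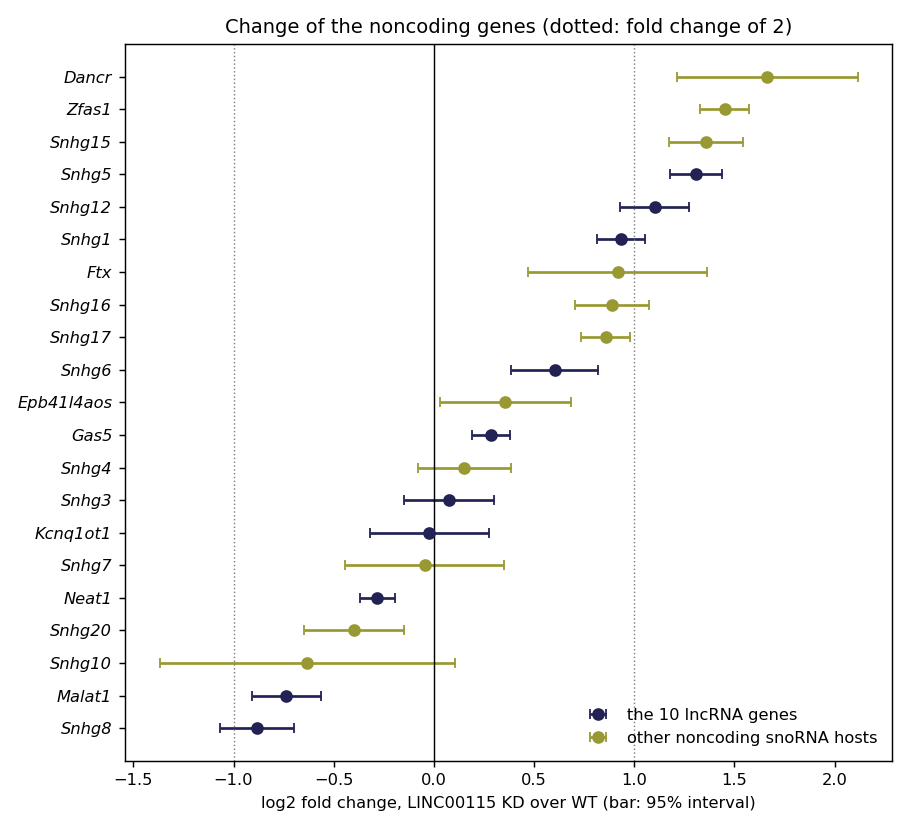
Log2 fold change of KD over WT (x axis) with its 95% interval for the 10 lncRNA genes (dark) and the 11 tested genes of the list of other noncoding snoRNA hosts (olive), sorted by size, with dotted lines at a fold change of 2. Dancr, Zfas1, Snhg15, Snhg5 and Snhg12 lie beyond the right line, and Snhg8 and Malat1 are the lowest with intervals left of 0.

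Protein-coding genes that carry snoRNAs in their introns give the same kind of transcript with an exported messenger RNA. Of 45 tested, 17 rose and 27 fell, beside 36.7% of all tested genes in each direction. The median log2 fold change was -0.26. Nop56, a core protein of box C/D particles, rose 2.07-fold, as did the chaperone gene Hspa8 (2.06-fold) and Rcc1 (2.01-fold), which overlaps SNHG3 in the human genome. Rpl21, a protein of the large ribosomal subunit, fell most (log2 -1.31). Split after the values were seen, all 22 ribosomal protein hosts fell, with log2 fold changes from -1.31 to -0.22 and a median of -0.55. The other 23 held 17 that rose and 5 that fell, with a median of 0.31. Ribosomal protein genes have many processed copies in mammalian genomes, and the way the counting treated reads that match several copies is not given in the sources used here.

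The next list holds proteins that bind and mature snoRNAs. Of 19 tested, 13 rose, 3 fell and 3 did not pass, beside 36.7% of all tested genes in each direction, with a median log2 fold change of 0.30. Beside Nop56 (log2 1.05), Naf1, an assembly factor of H/ACA particles, rose (log2 0.96). Nop10, a core H/ACA protein, fell (log2 -1.09). Fbl, the methyltransferase of box C/D particles, is given for its role and fell by little (log2 -0.17), and Dkc1, the pseudouridine synthase of H/ACA particles, rose (log2 0.59).

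Factors of nonsense-mediated decay, the path that removes many spliced SNHG transcripts, were tested for 21 genes. Of these, 9 rose, 5 fell and 7 did not pass, beside 36.7% of all tested genes in each direction. The median log2 fold change was 0.09. Nbas (log2 1.01), Upf1, the central helicase (log2 0.91), and Smg9 (log2 0.79) rose most. Upf3b fell (log2 -0.76). The activity of the pathway was not measured here.

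Paraspeckle proteins are the partners of NEAT1. Of 20 tested, 10 fell, 5 rose and 5 did not pass, beside 36.7% of all tested genes in each direction, with a median log2 fold change of -0.20. Ss18l1 (log2 -0.81), Rbmx (log2 -0.59) and Tardbp, the gene of the RNA-binding protein TDP-43 (log2 -0.50), fell most. Of the essential pair named here for their role, Nono fell (log2 -0.42) and Sfpq did not pass (log2 0.06, adjusted p = 0.0821, edgeR). None of the 20 passed a fold change of 2.

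Nuclear speckle proteins share their compartment with MALAT1. Of 20 tested, 13 rose, 6 fell and 1 did not pass, beside 36.7% of all tested genes in each direction, with a median log2 fold change of 0.28. The splicing factors Srsf2 (log2 0.73) and Srsf6 (log2 0.72) rose, and Clk1, a kinase of such factors, fell (log2 -0.95).

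A list of RNase P subunits and other factors linked to RNA 3′ ends held 14 tested genes. Of these, 6 rose, 2 fell and 6 did not pass, beside 36.7% of all tested genes in each direction. The median log2 fold change was 0.16. Mettl16, which rose, and Drosha and Dgcr8, which did not pass, are in this list without being enzymes that cut these 3′ ends. Among the protein subunits of RNase P, Pop7 (log2 0.97) and Rpp40 (log2 0.97) rose and Rpp21 (log2 -0.96) fell. RNA of a kind that lacks a poly(A) tail was almost outside the table: 1 of 15 such genes had a row, Vaultrc5, with at most 1 count in a library. The labels name total RNA and an mRNA kit, and reads of the long Neat1 form and the short one cannot be told apart in counts per gene.

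Genes of the imprinted domain around Kcnq1ot1 were mostly lower or too low to test. Of 13 with a row, 8 were tested, and 5 fell, 1 rose and 2 did not pass. The same rule called 36.7% of all tested genes in each direction. The 2 that did not pass were Phlda2 (log2 -0.13) and Osbpl5 (log2 0.01). Tnfrsf23 fell (137 to 61.5 CPM, log2 -1.15) and Nap1l4 fell (log2 -0.35). Slc22a18 rose from 0.424 to 1.97 CPM (log2 2.20). Cdkn1c, Kcnq1, Igf2 and H19, known targets or neighbours in this domain, had at most 8 counts in any library.

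Genes near the 10 lncRNA genes, taken from the human map (RefSeq, GRCh38.p14), were counted for 19 of 20, and 16 were tested. Of these, 6 rose and 8 fell, beside 36.7% of all tested genes in each direction. Around Malat1 and Neat1, Frmd8 (log2 -0.46), Slc25a45 (log2 -0.95) and Ltbp3 (log2 -0.60) fell, as both lncRNAs did. Slc3a2, whose human gene lies 0.223 kb from SNHG1, rose 2.20-fold (160 ± 3.50 to 352 ± 10.4 CPM, n = 3), and Wdr74 on the other side rose (log2 0.50).

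Beside Snhg8, a close neighbour went in the other direction. Prss12, 0.214 kb away in the human map, rose 5.71-fold (1.29 ± 0.253 to 7.39 ± 0.175 CPM, n = 3, log2 2.51), while Snhg8 fell. Mettl14, further along, rose (log2 0.41). Around Snhg3 and Snhg12, Rcc1 rose (log2 1.00), Trnau1ap, which overlaps SNHG12, fell (log2 -0.41), Gmeb1 fell (log2 -0.54) and Phactr4 did not pass (log2 0.06).

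Zbtb37, which overlaps GAS5, did not pass (log2 0.10). Syncrip, near SNHG5, rose (log2 0.18), and Cops5, near SNHG6, fell (log2 -0.23). Use of strand in the counting is not given in the sources used here, so reads of the overlapping pairs, Gas5 with Zbtb37, Snhg3 with Rcc1 and Snhg12 with Trnau1ap, cannot be told apart where their exons share bases. Where a lncRNA and its overlapping neighbour had opposite signs, as Snhg12 and Trnau1ap did, the values are given as counted.

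Other lncRNAs and microRNA hosts were described from 25 with a row, of which 16 were tested. Of these, 3 rose, 5 fell and 8 did not pass, beside 36.7% of all tested genes in each direction. The median log2 fold change was -0.06. Mir17hg, the host of the miR-17-92 microRNA cluster, rose from 3.56 to 12.4 CPM (log2 1.80). Peg13, an imprinted RNA, fell (log2 -1.02), and Jpx fell (log2 -0.94).

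Markers of further cell types moved with the groups as well, beside 36.7% of all tested genes called in each direction. Of 7 tested leukocyte markers, 4 were higher and 0 lower, and the 14 with a row summed to 72.5–86.3 CPM in WT and 145–160 CPM in KD. The 4 were S100a8 (33.0 to 95.2 CPM), Lyz2 (0.795 to 6.58 CPM), Cd74 (0.928 to 3.27 CPM) and S100a9 (0.0176 to 1.47 CPM). Ptprc, the common leukocyte antigen CD45, was at 0.194 and 0.255 CPM, and Cd3e was at 0 in every library. Endothelium markers (1 of 5 tested higher, 2 lower) summed to 9.71–11.5 and 65.4–67.0 CPM, where Cdh5 gave most of the KD sum. Fibroblast markers (0 of 4 higher, 2 lower) summed to 175–193 and 76.6–78.7 CPM. Erythroid markers (2 of 2 higher) summed to 0–0.0794 and 1.63–2.33 CPM. The tested erythroid markers and S100a9 had at most 2 counts in a WT library, so higher was the only possible call. Of the markers fixed as present in MDA-MB-231, 6 of 12 were higher and 3 lower, and they summed to 14876–15039 and 13151–13343 CPM. Of the epithelial and receptor markers fixed as low in this line, 5 of 8 tested were higher and 3 lower, with sums of 717–738 and 1046–1093 CPM. Krt8 was the largest of these in both groups (472 and 753 CPM), so not every gene of this list was low. The part of any of these in the changes of the 10 lncRNA genes was not tested.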

How the data were processed

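RNA-seq of 6 libraries (3 LINC00115 KD, 3 WT) was analysed. The authors deposited 1 table of whole-number read counts per gene, without normalization. According to the methods of the study, reads were mapped to hg19 with HISAT2, while the submitters' processing notes list HISAT2, featureCounts, DESeq2 and hg38. The kits named for RNA and libraries also differ between both sources. Which annotation was counted, and whether strand was used, is not given in the sources used here. Columns were assigned to samples by the description in the labels, and 0 columns of values were left unused. Totals were 36979221–38799331 counts, and TMM factors 0.99–1.01. Libraries of a group differed by more than sampling noise (chi-square of 3.89–7.60 for each degree of freedom), and libraries of different groups by 206–226.

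Genes were filtered with filterByExpr (minimum count 10, total 15), which left 13497 of 22989, and tested with edgeR 4.0.16 in R 4.3.3 (TMM, quasi-likelihood test, group as the only term, Benjamini-Hochberg over all genes tested). Normalized CPM are counts per 1000000 of the TMM-scaled total. A gene rose or fell at an adjusted p under 0.05; a fold change over 2 was a second rule. The biological coefficient of variation was 5.21%. Intervals are 95%. Ratios of counts were compared by an exact permutation test. The fit was tested on simulated data.

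The 10 genes and all lists were chosen with earlier results of these data known. Named are all 10 genes, their neighbours and, in each list, those past a fold change of 2, or the most changed up to 3. Values of 2 neighbours are not reported here. Of the cell type lists, counts, sums and examples are given. Genes given for their role were chosen after their values were seen. Alternatives were other scalings (DESeq2 size factors, upper quartile, library size), other filters, each library left out, DESeq2 1.42.0, a replicate block, a test against a fold change of 1.2 and a fold change over 1.5. Leaving out WT replicate 1 and KD replicate 3 together was added after the data were seen. Start sequences were read from RefSeq (GRCh38.p14). No gene lengths or mouse genome were used here.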

Additional observations from a re-analysis of the deposited data

How the results depend on the processing

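Of 150 calls, 1 for each of the 10 lncRNA genes under each alternative, 148 stayed as they were. The exceptions came with the test against a fold change of 1.2, where Neat1 (log2 -0.28, adjusted p = 0.225) and Gas5 (log2 0.28, adjusted p = 0.231) no longer passed (edgeR). Kcnq1ot1 (-0.20 to 0.22) and Snhg3 (-0.01 to 0.18) changed sign over the alternatives without passing in any. Leaving out 1 library at a time gave log2 fold changes of -0.91 to -0.57 for Malat1, -0.33 to -0.22 for Neat1, 1.26 to 1.37 for Snhg5, 1.08 to 1.16 for Snhg12 and -0.93 to -0.82 for Snhg8. Past a fold change of 1.5 in place of 2, 2456 genes were lower and 2463 higher, among them 2 and 4 of the 10. With at least 10 counts in every library, 903 genes were higher past a fold change of 2 in place of 1381. Counts of called genes in the lists were equal or within 1.5 times in 506 cases. In 26 cases they moved by more, or to or from 0. The 26 touched the lower genes among other noncoding hosts (0 to 2 genes), 3′ end factors (1 without WT replicate 1, WT replicate 2 or KD replicate 3) and endothelium, the higher paraspeckle genes (3 under upper quartile scaling), and the higher genes of 6 cell type lists. With at least 10 counts in every library, 2 lung and 2 kidney genes were called higher. The other lung and kidney genes called higher in the main test had fewer than 10 counts in WT libraries. Other scalings moved the median of all genes to between -0.05 and 0.00073.

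Libraries with the same replicate number did not deviate together (r of 0.042, -0.015 and -0.021 over genes), so over all genes the number did not act as a pairing. Malat1 and Kcnq1ot1 did fall from replicate 1 to replicate 3 in both groups, an order seen after the fact. With the replicate number as a block, the SE of Malat1 was 0.04 in place of 0.08. In that fit, 4906 genes were lower and 4932 higher, and 3 and 5 of the 10 lncRNA genes were called. The 10 genes had at least 227 counts in each library, where counting error is still a part of the standard error of the less counted ones, and 3 libraries a group limit every estimate of spread.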
